A study of Mus musculus with 48 samples.

Results

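RNA editing, the conversion of adenosine to inosine in transcripts, was measured in 4 mouse genes, Exoc8, Agphd1, Trove2 and uc007vsb.1. These genes hold 108 of the 48715 positions listed for every library, and 56 of the 108 passed 100 reads in 1 or more libraries, against 7339 of all positions. By gene, the 56 positions fall into 19 of 43 in Exoc8, 11 of 16 in Agphd1, 12 of 20 in Trove2 and 14 of 29 in uc007vsb.1. The genes were chosen by the editing levels of their positions in bone marrow (BM), liver or kidney of these same libraries, where the difference between genotypes was large, so the values of those 3 tissues are given as a description, with no test. Editing was measured by mmPCR-seq, in which stretches of cDNA holding known editing sites are amplified with pooled primers and sequenced. Inosine is read as G, so the editing level is the percentage of reads at a genomic A that show G.

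The mice were C57BL/6 males, 12 weeks old. The controls, called WT, were Adar1+/+ Ifih1-/-, and the mutants, called E861A, were Adar1E861A/E861A Ifih1-/-. Both lack Ifih1, which encodes the double-stranded RNA sensor MDA5, so the controls are not wild type at that locus. The E861A allele is a knock-in whose ADAR1 protein cannot edit. Each of 8 tissues (BM, spleen, thymus, liver, kidney, small intestine, heart and brain) gave 3 libraries per genotype, 48 in all, described as independent biological replicates. Liver is named in the sample labels but not among the tissues of the growth protocol. Whether a mouse gave more than 1 tissue is not given in the sources used here. In such mixed tissue, fewer cells that edit a transcript and less editing per cell cannot be told apart.

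ADAR1 and ADAR2 deaminate adenosine in double-stranded RNA, which a transcript often forms where a repeat in its 3′ UTR pairs with an inverted copy nearby. ADAR1 is made in most tissues, whereas ADAR2 is highest in the brain. Inosine pairs like guanosine, so editing of a 3′ UTR leaves the protein sequence as it is, but loosens the duplex that MDA5 can sense. Of the 4 genes, Exoc8 encodes a subunit of the exocyst, which tethers secretory vesicles to the plasma membrane. Agphd1, also named Hykk, encodes a hydroxylysine kinase, and Trove2, also named Ro60, encodes the Ro autoantigen, which binds misfolded small RNAs. The name uc007vsb.1 is a UCSC identifier of a non-coding transcript.

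Each gene is represented here first by its lead position, the one with the highest WT level averaged over BM, liver and kidney, except that for uc007vsb.1 the next highest was taken because the highest was thinly read. Coordinates are those of mm9, and gene models those of GENCODE M1 on that build. The Exoc8 lead, at position 127417779 of chromosome 8 (minus strand), lies in the 3′ UTR part of the single exon, 127414200 to 127421605. The Agphd1 lead, at 54795019 of chromosome 9 (plus strand), lies in the 3′ UTR of exon 5, from 54793873 to 54797731. The Trove2 lead, at 145602508 of chromosome 1 (minus strand), lies in the 3′ UTR of exon 9, from 145597920 to 145605024. The uc007vsb.1 lead, at 55087127 of chromosome 15 (plus strand), is annotated as non-coding in the deposited tables, but in GENCODE M1 it also falls in the 3′ UTR of Deptor, whose exon 9 runs from 55083562 to 55090826 on the same strand. Reads of the 2 transcripts cannot be told apart there.

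The stretches around the lead positions are shown because they hold most of the editing described below. They are written 5′ to 3′ on the transcript strand from the mm9 genome, and capitals mark the adenosines whose mean level reached 10% in at least 1 tissue and genotype with 2 or more libraries.
Exoc8, chr8:127417762-127417791, minus strand: aactcactctgtAgaccAggctatccttga
Agphd1, chr9:54795014-54795043, plus strand: cctttAAtcccagcgcttgagaggcAgagg
Trove2, chr1:145602494-145602523, minus strand: AgtcctggctAttctAgagctcActgtgtA
uc007vsb.1, chr15:55087106-55087135, plus strand: gtggtcatAgtgcacAcctttAAccctagc
The lead is base 13 in Exoc8, base 6 in Agphd1, base 16 in Trove2 and base 22 in uc007vsb.1. Another 3 adenosines reached 10% outside these windows, and they are shown with 10 bases on each side.
Exoc8, 311 bases 5′ of the lead, chr8:127418080-127418100, minus strand: gctggtgcacActtttaatca
Trove2, 31 bases 3′ of the lead, chr1:145602467-145602487, minus strand: gctggccttgAacagagagcc
uc007vsb.1, 36 bases 3′ of the lead, chr15:55087153-55087173, plus strand: aggtagaggcAgatctctgtg

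ADAR enzymes disfavour a G just before the edited adenosine. Among the 17 adenosines in capitals, the base before was T at 8, C at 6, A at 2 and G at 1 (5.88%), against 17.7% with G among the 1826 positions of the whole panel that were edited in at least 1 tissue. The base after them was G at 8 (47.1%), against 41.1% of those 1826. All 4 leads are preceded by T. The leads of Agphd1 and uc007vsb.1 are among the 19 of the 1826 edited positions (1.04%), in 15 genes, that sit at the last base of CCTTTA. The Exoc8 adenosine 311 bases 5′ of the lead and the uc007vsb.1 adenosine 6 bases 5′ of its lead are among the 3 of the 1826 (0.164%) that sit at the last A of GTGCACAC. These letters were searched on the transcript strand only, with the adenosine at a set place, and were chosen after the sequences were seen.

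The best inverted match near each stretch was also sought, and such a search returns a best match for any sequence. The 100 bases on each side of a position were aligned to the reverse complement of the 3000 bases on either side, scoring 1 for a match, -1 for a mismatch, -3 to open and -1 to extend a gap. For the Exoc8 lead the best match had 71% identity and was centred 1502 bases 3′ of the lead. For Trove2 it had 73% identity and was centred on the 5′ side of the lead. For uc007vsb.1 it had 69.9% identity, also on the 5′ side. The Agphd1 match was the shortest of the 4, with 65 aligned bases at 76.9% identity, centred 543 bases 3′ of the lead. The scores of Exoc8 (64), uc007vsb.1 (60) and Trove2 (58) lay above the median of 41 over the 1826 edited positions and that of Agphd1 (33) below it, where the quartiles were 27 and 59. Neighbouring positions share these windows, so they are not separate observations, and an alignment is no evidence that the RNA pairs.

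Across libraries, summed coverage ran from 1861831 to 11394093, with the lowest in WT BM replicate 2, and 1949 to 6806 positions had more than 100 reads. Between 10 and 56 positions of the 4 genes (median 44) passed that minimum in a library. At the lead positions, 72 of 96 WT and 77 of 96 E861A values passed it, with 110 to 2639 reads (median 951). The exact (Clopper-Pearson) 95% interval of a lead level had a median half-width of 0.628 percentage points and a widest one of 9.68, and such intervals cover counting error only. The thinnest value kept was that of the Trove2 lead in WT BM replicate 2 (56 of 110 reads edited, 50.9%, interval 41.2% to 60.6%), and the Exoc8 lead in E861A kidney replicate 2, with 91 reads, was left out. The brain libraries held a median of 180256 reads at Gria2, a neuronal glutamate receptor gene, against 175.5 in the other tissues. WT small intestine replicate 1 and WT liver replicate 3 stand apart from their tissues, since all 40 Gria2 positions had more than 100 reads there, as in brain, and 17 positions of Cadps, another neuronal gene, did too. E861A small intestine replicates 2 and 3 also had 17 Cadps positions above 100 reads, with 15 and 11 of Gria2, and their covered lead levels were at most 0.189%. WT small intestine replicate 1 is also the library with the high lead levels of that tissue given below, and without it no lead has 2 covered WT libraries in small intestine. WT liver replicate 3 had the highest Trove2 lead level of liver, and without it no WT liver library is edited at the Exoc8 adenosine at 127417774 or above 0.282% at the Trove2 adenosine at 145602523. Other libraries had such positions too. In kidney 13 Cadps positions passed 100 reads in each WT library and 0 in each E861A library. Gria2 positions there numbered 24, 26 and 15 in WT and 0, 24 and 0 in E861A. WT BM replicate 3 had 31 of Gria2 and 9 of Cadps, against 11, 0 and 11 of Gria2 and 0 of Cadps in E861A BM. WT spleen replicate 3 had 15 of Gria2 and 13 of Cadps. Thymus and heart are given below. The part of such reads in the editing levels was not tested.

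In WT, the lead levels were either high or near 0, depending on the library. Over all 4 leads, 37 of 72 WT values exceeded 20%, 30 were under 1%, and only 5 lay between. In E861A, 66 of 77 values were under 1% and 5 exceeded 20%, and those 5 were all at Trove2. At the Exoc8 lead none of 15 E861A values exceeded 0.649%, and at the Agphd1 lead none of 18 exceeded 0.565%. At the uc007vsb.1 lead 22 of 23 E861A values were under 1%. These counts include the tissues that chose the genes, and tissues where WT was near 0 too. The label of lost editing does not describe the Trove2 lead, which had E861A values above 5% in brain, liver, kidney, heart and spleen, nor the Agphd1 adenosine at 54795039, edited in all 3 E861A liver libraries, the Exoc8 adenosine at 127417774, edited in 1 of 2 covered E861A liver libraries, and the uc007vsb.1 adenosine at 55087163, edited in E861A brain and liver.

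**Figure D1:**
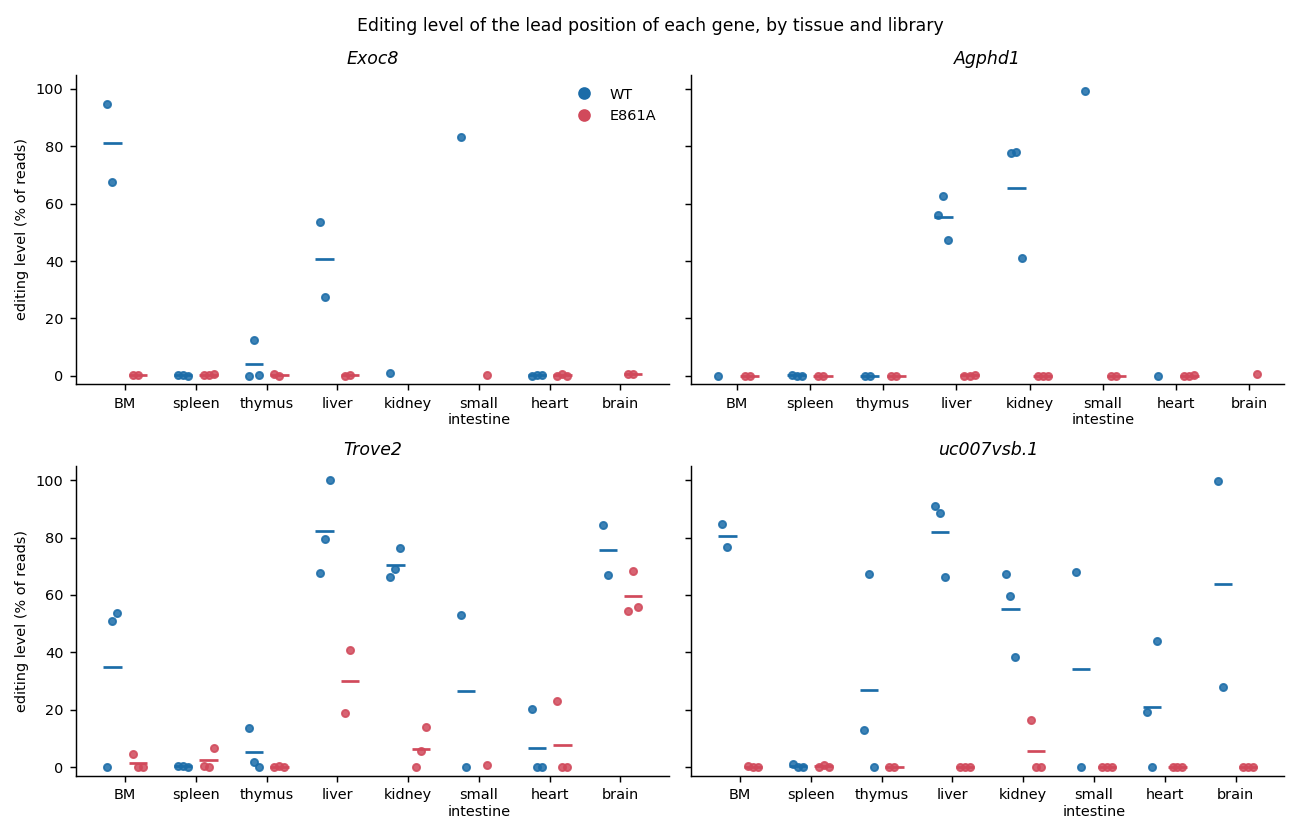
Editing level of the lead position of each gene in percent of reads (vertical axis) by tissue (horizontal axis), with 1 point per library of more than 100 reads and a line at the mean of a genotype where 2 or more libraries are shown. E861A points (red) lie near 0 for Exoc8 and Agphd1, while Trove2 keeps levels of 54.4% to 68.2% in E861A brain.

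Among tissues with 2 or more covered WT libraries, Exoc8 had its highest mean level in BM. The WT levels at its lead were 94.8% and 67.5% in replicates 1 and 3, with 2 reads in replicate 2, and the E861A levels were 0.212% and 0.362% in replicates 1 and 3. In liver the 2 covered WT libraries had 53.6% and 27.6% and the 2 covered E861A libraries 0% and 0.444%. In both tissues the genotypes do not overlap. In small intestine only replicate 1 of each genotype was covered, at 83.4% in WT (exact 95% interval 80.7% to 85.9%) and 0.329% in E861A (0.0896% to 0.839%), which allows no test.

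In the other tissues the Exoc8 lead was near 0 in WT too. In thymus the WT libraries had 0%, 12.4% and 0.261%, and the 2 covered E861A libraries 0.481% and 0%, so the groups overlap and only WT replicate 2 stands out. All spleen and heart libraries of both genotypes were under 0.7%, and the 1 WT kidney library covered had 0.8%. In WT brain no library had a read there, while 2 E861A libraries had 0.649% and 0.518%. By the mean WT level, with at least 2 libraries, the tissues run from BM (81.2% ± 19.3, SD, n = 2) and liver (40.6% ± 18.4, SD, n = 2) to thymus (4.21% ± 7.06, SD, n = 3), heart and spleen (0.0999% ± 0.0945, SD, n = 3). The values of BM and liver do not overlap, nor do those of liver and thymus, whereas those of thymus and heart and of heart and spleen do.

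A further 2 Exoc8 adenosines reached 10%. The one 5 bases 3′ of the lead (base 18 of the window, position 127417774) had 0% and 36.8% in WT liver replicates 2 and 3, and 51.6% and 0.455% in E861A liver replicates 2 and 3. In small intestine, replicate 1 had 56.4% in WT and 0.0845% in E861A. In BM it had 0% and 3.88% in WT and at most 0.223% in E861A, and every covered library of the other tissues was under 1%. The E861A liver level of 51.6%, from 529 reads, stood in a library whose lead, 5 bases away, had 0 of 557 reads edited, which allows a level of up to 0.539%. At the adenosine 311 bases 5′ of the lead (position 127418090), WT liver had 60.7%, 22.2% and 10.3%, and no E861A liver library exceeded 0.188%. That adenosine was edited in 1 or 2 of the covered WT libraries of BM (0% and 15.6%), thymus (0%, 18.5% and 2.06%) and kidney (0%, 18.7% and 0%). In small intestine WT had 4.51% and 0.141% and E861A at most 0.221%. In brain, WT replicate 3 had 14 of 16 reads edited, too few to pass the minimum, and no E861A library exceeded 0.353%. The remaining 16 Exoc8 positions stayed at or under 3.57% in every library.

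Agphd1 was edited in liver and kidney. In WT liver its lead had 56%, 62.7% and 47.3%, and in E861A liver 0%, 0% and 0.434%. In WT kidney it had 77.7%, 78.1% and 40.9%, and no edited read was found among 274, 751 and 465 reads of the E861A libraries, which allows levels of up to 1.09%, 0.399% and 0.645%. The genotypes do not overlap in either tissue, and the WT levels of liver and kidney overlap each other. In kidney the Cadps positions above 100 reads also differed, with 13 in each WT library and 0 in each E861A library, and their part was not tested. The 1 covered WT library of small intestine had 99.3% (exact 95% interval 97.6% to 99.9%) and both covered E861A libraries had 0%.

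The Agphd1 lead was not edited in WT libraries of the other tissues that covered it. WT levels were 0% in the 1 covered library of BM, 0.44%, 0% and 0% in spleen, 0% in both covered libraries of thymus and 0% in the 1 of heart. No WT brain library covered it. Since no tissue outside liver and kidney had both an edited WT level and 2 covered libraries of each genotype, no Agphd1 position entered a test.

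The 3 Agphd1 adenosines of the window did not share 1 pattern across genotypes. The adenosine next to the lead (base 7, position 54795020) had 29.7%, 28.5% and 18.4% in WT liver and at most 0.103% in E861A liver. In kidney it had 45.4%, 34.7% and 15.8% in WT and at most 0.224% in E861A. The adenosine 20 bases 3′ of the lead (base 26, position 54795039) was also edited in E861A liver, at 20.9%, 24.6% and 34%, against 37.8%, 25.5% and 23.9% in WT. Its liver groups overlap. The WT mean was 29.1% ± 7.61 (SD, n = 3), and the E861A mean was 26.5% ± 6.74 (SD, n = 3). In kidney it had 15.1%, 18.2% and 21.7% in WT and 9.63%, 14.4% and 14.2% in E861A, and there the E861A libraries all lie below the WT libraries. Elsewhere it was at most 0.671% in any library above 100 reads, including the WT small intestine library with 99.3% at the lead, where it had 0.34%. Below that depth, E861A brain replicate 3 had 55 of 81 reads edited at this adenosine and 0 of 84 at the lead.

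**Figure D2:**
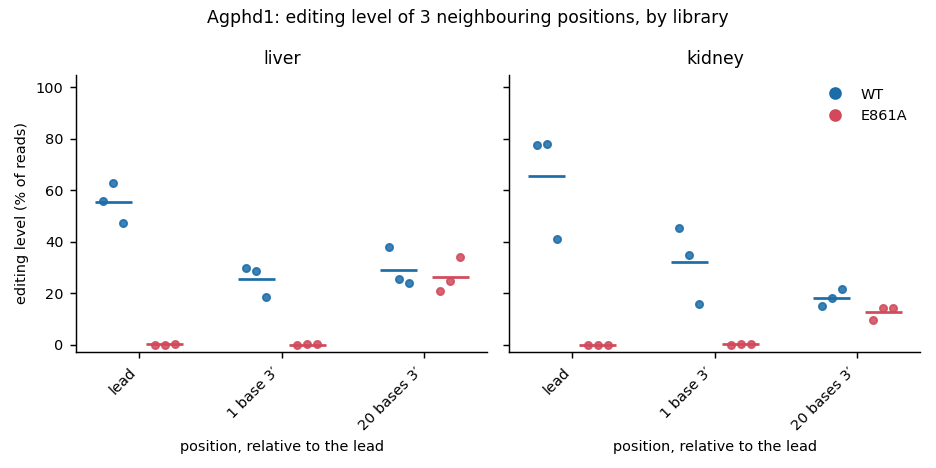
Editing level in percent of reads at 3 adenosines of Agphd1 (horizontal axis, named by their distance from the lead) in liver and kidney, with 1 point per library and a line at the mean of each genotype. The lead and its neighbour lie near 0 in E861A (red), while the adenosine 20 bases further 3′ has 20.9% to 34% in E861A liver and 9.63% to 14.4% in E861A kidney.

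Trove2 was read in nearly all tissues and was edited most in liver, brain and kidney. In WT liver its lead had 67.6%, 79.5% and 99.9%, and in E861A liver 18.9% and 40.8%, with 1 read in replicate 3. In WT kidney it had 66.2%, 69.1% and 76.5%, and in E861A kidney 0%, 5.57% and 13.8%. The genotypes do not overlap in these tissues, but the E861A levels are above 5% in 4 of the 5 covered libraries. In BM the WT libraries had 0%, 50.9% and 53.7% and the E861A libraries 4.56%, 0.196% and 0%, so the groups overlap through WT replicate 1.

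In brain the Trove2 lead had 84.5% and 66.9% in WT replicates 1 and 3, and 54.4%, 68.2% and 55.8% in E861A. The groups overlap. In WT replicate 2, which had 54 reads and was left out, all 54 were edited. The difference on the log2 ratio scale, log2((level + 0.01)/(1 - level + 0.01)), was -1.13 (SE 0.71), with a limma adjusted p of 0.701 over the 808 edited brain positions (0.486 to 0.795 over the alternatives). With reads above 50 the WT group held 3 libraries and the difference was -2.79.

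In the remaining tissues, single libraries stand out at the Trove2 lead in both genotypes. Spleen had 0.301%, 0.329% and 0.0621% in WT and 0.305%, 0.0435% and 6.66% in E861A. Thymus had 13.7%, 1.85% and 0.0441% in WT and at most 0.282% in E861A. Heart had 20.3%, 0.123% and 0% in WT and 22.9%, 0% and 0.0984% in E861A. Replicate 1 of each genotype is the high library in heart, and the groups overlap in all 3 tissues. The limma adjusted p was 0.432 in spleen, 0.347 in thymus and 0.978 in heart. In small intestine the WT libraries had 52.9% and 0.0411%, and the 1 covered E861A library 0.568%.

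By mean WT level the Trove2 lead runs from liver (82.4% ± 16.3, SD, n = 3), brain (75.7% ± 12.4, SD, n = 2) and kidney (70.6% ± 5.3, SD, n = 3), which overlap, to BM (34.9% ± 30.2, SD, n = 3), small intestine (26.5% ± 37.4, SD, n = 2), heart (6.81% ± 11.7, SD, n = 3), thymus (5.21% ± 7.45, SD, n = 3) and spleen (0.23% ± 0.146, SD, n = 3). Kidney and BM do not overlap, while each later pair of neighbours does.

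The Trove2 lead was the highest position in 11 of the 13 WT libraries where it exceeded 5%, and in 9 of 9 such E861A libraries. The WT count includes libraries of BM, liver and kidney that chose the lead, so it partly restates that choice. The adenosine 7 bases 3′ of the lead (base 23, position 145602501) had 68.8%, 23.7% and 96.1% in WT liver and 28.8%, 23.9% and 9.03% in WT kidney. It was at most 0.337% in E861A liver and kidney, where the lead kept part of its level. In small intestine it had 54.4% and 0.258% in WT and 0.199% in the 1 covered E861A library. In BM it had 0.0743%, 0% and 7.16% in WT and 5.12%, 0.256% and 0.193% in E861A, which overlap. E861A BM replicate 1 also had 4.61% at base 11 and 4.91% at base 30, where WT BM replicate 3 had 6.87% and 10.9%. In brain it was at most 0.443% in either genotype, beside a lead above 50% in all 5 libraries. The adenosine 5 bases 5′ of the lead (base 11, position 145602513) had 68.6%, 0% and 35.2% in WT liver and 21.7%, 32% and 3.45% in WT kidney, and 0% in all covered E861A libraries of both tissues.

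A pair of Trove2 adenosines had higher means in E861A than in WT brain over the libraries above 100 reads. At base 11 (position 145602513) the WT brain libraries had 0% and 6.41% and the E861A libraries 4.06%, 27.7% and 17.2%, so the groups overlap. WT replicate 2, left out with 54 reads, had all 54 edited there, above every E861A library, so the order of the genotypes at base 11 rests on the depth minimum. At base 30, 14 bases 3′ of the lead (position 145602494), WT brain had 0.0989% and 3.65% and E861A brain 4.11%, 26.8% and 4.3%, and every E861A library was above both WT libraries. WT replicate 2 had 0 of 56 reads edited there. In kidney the same adenosine had 7.24%, 16.4% and 0.416% in WT and 0%, 0.416% and 0% in E861A, where E861A replicate 2 (6 of 1444 reads) is below WT replicate 3 (8 of 1921 reads) by less than the rounding shows. Neither brain difference passed (limma adjusted p = 0.701 for both, with log2 ratio differences of 2.56, SE 1.39, and 2.17, SE 1.32). The other adenosines, 31 bases 3′ and 15 bases 5′ of the lead, were edited in WT liver in 1 library each, at 70.6% in replicate 1 and at 35.5% in replicate 3. The latter also had 7.39% in WT kidney replicate 1 and 2.11% in WT BM replicate 3, and was under 1% in every other covered library. The former was at most 0.356% in every other covered library.

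**Figure D3:**
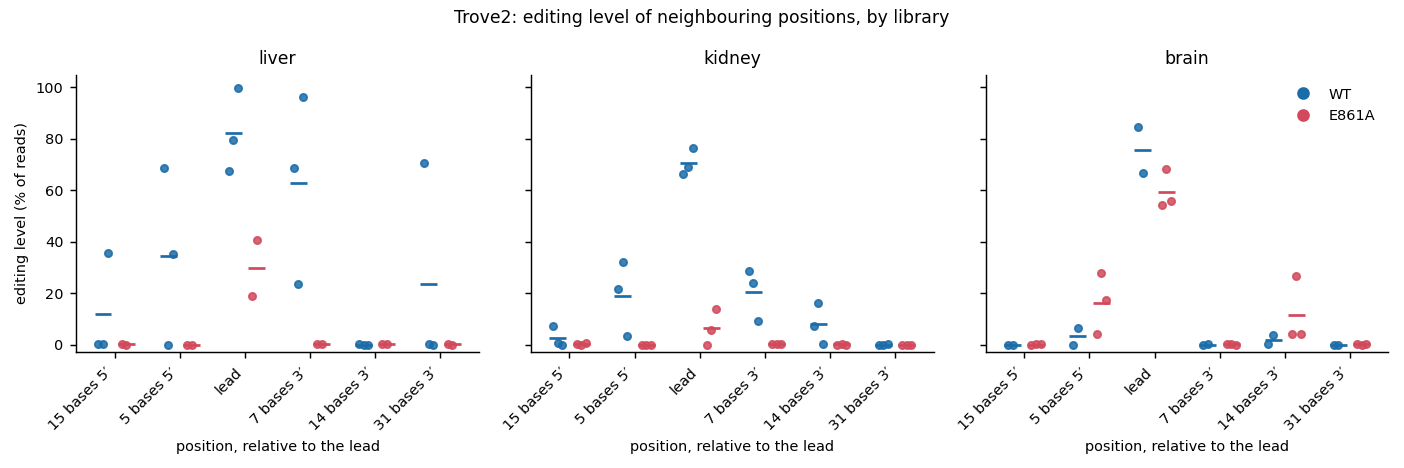
Editing level in percent of reads at the 6 adenosines of Trove2 that reached a mean of 10% in a group (horizontal axis, named by their distance from the lead in the direction of the transcript) in liver, kidney and brain, with 1 point per library and a line at the mean. In liver and kidney the neighbours of the lead are at or under 0.475% in E861A (red), whereas in brain 2 of them reach 26.8% and 27.7% in E861A replicate 2. Libraries at or below 100 reads, among them WT brain replicate 2, are not drawn.

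uc007vsb.1 was edited in WT libraries of more tissues than Exoc8 or Agphd1, but its lead was also covered in more WT libraries (21, against 15 and 14). In WT liver its lead had 90.9%, 88.5% and 66.1%, and in E861A liver 0.117%, 0.0938% and 0%. In WT BM it had 84.7% and 76.6% in replicates 1 and 3, and in E861A BM at most 0.231%. In kidney it had 67.4%, 59.7% and 38.5% in WT and 16.4%, 0% and 0% in E861A. In these 3 tissues the genotypes do not overlap, and E861A kidney replicate 1 is the only E861A library of the series above 1% at this lead.

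In brain the 2 covered WT libraries had 99.6% and 28% at the uc007vsb.1 lead, and the E861A libraries 0%, 0.128% and 0.153%. The WT values lie far apart, but both exceed every E861A value. The log2 ratio difference was -8.97 (SE 2.22), with an unadjusted limma p of 0.00882 and an adjusted p of 0.264 over the 808 positions. The call depends on the fit: with all 48 libraries in one limma model the adjusted p was 0.000646, in a fit that called 26.9% of the 808 positions. The study's own criterion, which asks for an F test p below 0.1 together with levels 0.05 or more apart, was also met, as it was by 7.8% of the 808. Over the limma and quasi-binomial alternatives the adjusted p ran from 0.000646 to 0.653.

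In heart the uc007vsb.1 lead had 19.2%, 0% and 43.9% in WT and 0% in all 3 E861A libraries (log2 ratio difference -3.65, SE 1.64, limma unadjusted p = 0.0496, adjusted p = 0.566). Without WT heart replicate 3 the difference was -2.32, and without WT heart replicate 2 it was -5.47 (limma adjusted p = 0.553 and 0.0757). In thymus it had 12.9%, 67.2% and 0% in WT and 0.103% and 0% in the 2 covered E861A libraries (limma adjusted p = 0.347). In small intestine it had 68% and 0.155% in WT and at most 0.189% in E861A (limma adjusted p = 0.559). The groups overlap in each of these tissues through 1 WT library near 0. In spleen both genotypes were under 1%.

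The WT libraries of thymus, heart and small intestine also differed in editing over the whole panel. Averaged over the edited positions read in all 6 libraries of a tissue, WT thymus had 5.08%, 10.5% and 0.991%, WT heart 9.69%, 2.04% and 5.44%, and WT small intestine 11.1%, 0.978% and 5.9%. WT thymus replicate 3, with 0.991%, is the library with 0% at the uc007vsb.1 lead, and WT heart replicate 2, with 2.04%, also had 0%. In small intestine the library near 0 at the lead, replicate 3, had 5.9%. WT thymus replicate 3, WT heart replicate 2 and WT small intestine replicate 3 also had 0 Gria2 and 0 Cadps positions above 100 reads. WT thymus replicates 1 and 2 had 11 Gria2 positions each, and 13 and 17 of Cadps. WT heart replicate 1 had 13 of Cadps, and replicate 3 had 26 of Gria2. Against that order, WT spleen replicate 3, with 15 of Gria2 and 13 of Cadps, had 0% at the lead. The part of these library levels and reads in the comparisons was not tested. Without WT thymus replicate 3, 3 uc007vsb.1 positions passed in thymus, at the lead (adjusted p = 0.0471), 6 bases 5′ of it (0.0445) and 13 bases 5′ of it (0.0102), by limma, when 39.8% of the 560 positions then tested also passed.

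By mean WT level the uc007vsb.1 lead runs from liver (81.8% ± 13.7, SD, n = 3), BM (80.7% ± 5.73, SD, n = 2), brain (63.8% ± 50.6, SD, n = 2), kidney (55.2% ± 14.9, SD, n = 3), small intestine (34.1% ± 48, SD, n = 2) and thymus (26.7% ± 35.7, SD, n = 3) to heart (21% ± 22, SD, n = 3) and spleen (0.362% ± 0.544, SD, n = 3). Each pair of neighbours in this order overlaps.

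Among uc007vsb.1 positions above 100 reads in 20 or more libraries, the lead was the highest in all 15 WT libraries where it exceeded 5%. These include libraries of BM, liver and kidney that chose the lead, so the count partly restates that choice. The adenosine 6 bases 5′ of the lead (base 16, position 55087121) came next, at a median of 35.9% of the lead's level. It had 68.7% and 16.2% in WT BM, 33.7%, 39.8% and 17.4% in WT liver and 18.1%, 21.4% and 12% in WT kidney, and at most 1.17% in any E861A library. In WT thymus it had 9.32%, 42.9% and 0.277%, in WT small intestine 36.1% and 0.18%, and in WT brain 0% and 13.4%. None of these 3 tissues passed (limma adjusted p = 0.347, 0.559 and 0.701). The adenosine directly after the lead (base 23, position 55087128) had 12.9%, 12.7% and 9% in WT liver and 8.73%, 6.53% and 5.61% in WT kidney. Its WT values were 0.728% and 14.5% in BM, 0.0867%, 12.2% and 0% in thymus, 9.95% and 0% in small intestine, and 0% and 9.36% in brain. The one 13 bases 5′ (base 9, position 55087114) had 22.9% and 10.1% in WT BM and 8.38%, 6.98% and 0% in WT thymus. At base 23 the highest E861A values were 1.9% in heart replicate 3 and 1.36% in liver replicate 2, and no E861A BM library exceeded 0.264% at base 9.

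The adenosine 36 bases 3′ of the uc007vsb.1 lead (position 55087163) was thinly read and is not among those. Of the libraries with more than 100 reads there, it exceeded the lead in WT BM replicate 1 (97% against 84.7%), WT liver replicate 3 (66.9% against 66.1%), WT brain replicate 3 (94.2% against 28%) and E861A brain replicate 2 (89.8% against 0.128%). WT liver had 71.7%, 82.1% and 66.9% there. The E861A liver libraries had 19 of 47, 12 of 43 and 22 of 59 reads edited, together 35.6% (exact 95% interval of the pooled reads 27.9% to 43.8%). In E861A brain 97 of 108 reads were edited in replicate 2 (89.8%) and 57 of 62 in replicate 3, against 94.2% in WT replicate 3. Editing at this adenosine was thus present in E861A brain libraries whose lead, 36 bases away, had 0.128% and 0.153%.

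Coverage at this uc007vsb.1 adenosine moved with its editing. Its reads were 10.3% of the lead's in WT BM, 6.79% in WT liver and 14.1% in WT brain, and 1.54%, 2.07% and 9.88% in E861A of the same tissues. In WT heart, where 1 of 47 reads was edited, they were 1.88%. Unedited reads numbered 107 in WT and 96 in E861A liver, while edited reads numbered 323 and 53. A level read from such positions need not be on the scale of the others, and the part of coverage in the difference was not tested.

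**Figure D4:**
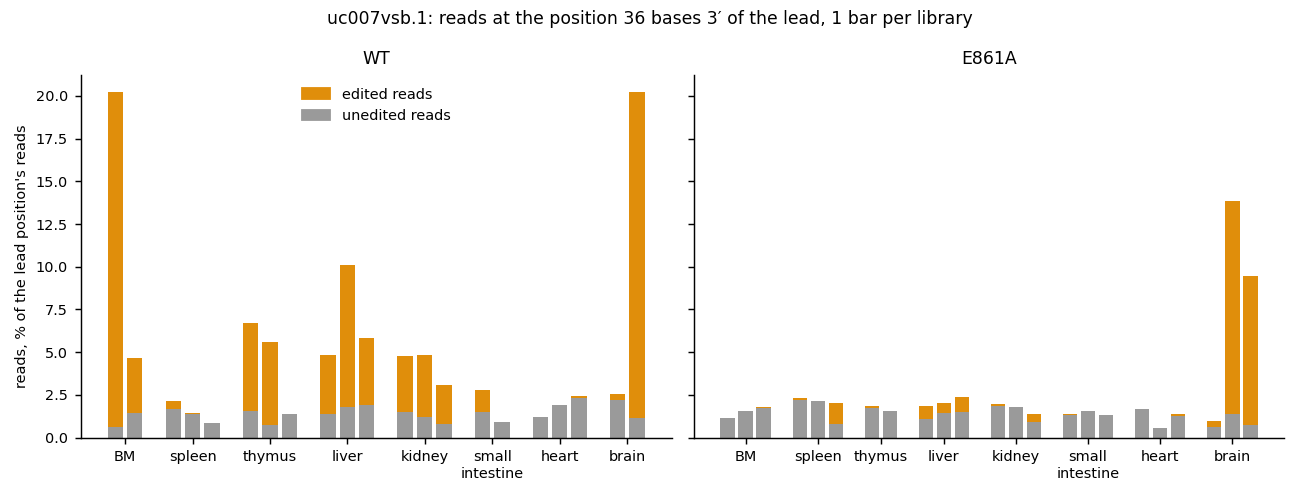
Reads at the uc007vsb.1 adenosine 36 bases 3′ of the lead as a percentage of the lead's reads in the same library (vertical axis), split into edited (orange) and unedited (grey) reads, for libraries with more than 100 reads at the lead. The bars are tallest in WT BM and WT brain, at 20.2% in 1 library each, and in E861A they exceed 2.5% only in brain.

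The remaining 39 of the 56 positions stayed under a mean of 10% in every group. Of these, 3 exceeded 10% in a single WT library, namely Trove2 at 145602476 in thymus replicate 1 (11.5%) and uc007vsb.1 at 55087157 in heart replicate 1 (18.2%) and at 55087292 in BM replicate 3 (10.1%). None exceeded 10% in an E861A library, where the highest value was 8.44%, for uc007vsb.1 at 55087147 in brain replicate 3. Of all 56 positions, 28 did not exceed a mean of 1% in any group.

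In BM, liver and kidney the genotypes were compared by whether their libraries separated, with all E861A values lower than all WT values, over positions covered in at least 2 libraries of each genotype and edited above 1% in either. In BM this held for 5 of 16 positions of the 4 genes, against 42.4% of the 538 edited positions of the panel. In liver it held for 11 of 18, against 31.9% of 677, and in kidney for 13 of 15, against 41.9% of 532. The median difference was -3.34 percentage points in BM, -24.5 in liver and -7.89 in kidney over the positions of these genes. Over all edited positions it was -2.82, -2.35 and -2.47. These contrasts chose the genes, so nothing is read from the shares.

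In the 5 tissues that did not serve to choose the genes, none of their positions passed the limma test at an adjusted p of 0.05. In spleen 0 of 2 passed, where 8.45% of the 284 edited positions were lower and 0.704% higher in E861A. In thymus 0 of 10 passed, in small intestine 0 of 4, in heart 0 of 5 and in brain 0 of 7, where 0% of the 529, 413, 446 and 808 edited positions passed in either direction. At an unadjusted p under 0.05, the uc007vsb.1 lead was lower in heart and brain and no other position of the 4 genes was. A quasi-binomial model called none of them either. Across all edited positions, 59 were lower and 3 higher in spleen at that unadjusted p, 75 and 0 in thymus, 2 and 0 in small intestine, 21 and 0 in heart, and 39 and 17 in brain.

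Counted by the overlap of libraries, 0 of 2 positions in spleen separated with all E861A values lower (26.4% of all edited positions), 0 of 10 in thymus (27.4%), 0 of 4 in small intestine (13.1%), 0 of 5 in heart (10.8%) and 1 of 7 in brain (11.6%), the uc007vsb.1 lead. The median difference of the 4 genes was 0.354 percentage points in spleen, -4.52 in thymus, -11.4 in small intestine, -2.38 in heart and -4.39 in brain. Over all edited positions it was -1.64, -2.59, -2.32, -1.75 and -0.838. With all 48 libraries in one limma model, 1 of 10 positions passed in thymus (uc007vsb.1 at base 9 of the window, adjusted p = 0.00953), where 17.8% of all edited positions passed. In heart 1 of 5 passed (Exoc8 at 127417786, higher in E861A at 0.898% against 0%, adjusted p = 0.0418), where 6.5% of all did. In brain 1 of 7 passed, where 26.9% of all did.

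**Figure D5:**
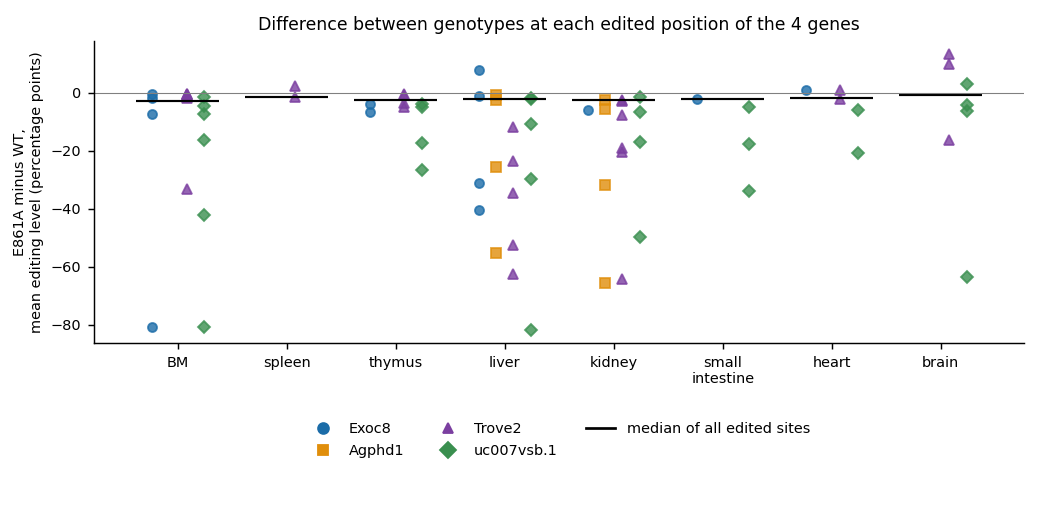
Difference in mean editing level between E861A and WT in percentage points (vertical axis) at each edited position of the 4 genes in each tissue (horizontal axis), with 1 symbol per position and a black line at the median of all edited positions of the tissue. The lowest differences, -80.9 and -80.6 in BM (Exoc8 and uc007vsb.1) and -81.7 in liver (uc007vsb.1), are at leads, and the 2 largest rises, at Trove2, are in brain.

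Whether the change in brain differed from that in another tissue was tested with an interaction contrast over 12 libraries. None of the positions of the 4 genes passed against spleen (0 of 7), thymus (0 of 10), small intestine (0 of 4) or heart (0 of 9), where 1.77%, 0.454%, 0.492% and 0.231% of all positions did. Only the uc007vsb.1 lead against spleen had an unadjusted p under 0.05. There the change in brain minus that in spleen, where both genotypes were near 0, was -8.88 on the log2 ratio scale (SE 2.22, limma unadjusted p = 0.00272, adjusted p = 0.125). With all 48 libraries in one limma model its adjusted p was 0.0224, and 8.98% of the 846 positions passed in that fit. For Trove2 the difference at the lead was -2.0 (SE 1.14, limma adjusted p = 0.545) between brain and spleen and 0.59 (SE 1.37, limma adjusted p = 0.861) between brain and thymus.

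For context, 3 lists of other genes were counted in the same fits. None of the 8 other exocyst genes, Exoc1 to Exoc7 and Exoc6b, had a position that could be tested in any tissue. Of 10 other genes known for editing of the 3′ UTR, among them Cds2, Mad2l1 and Rhoa, 9 of 42 positions were lower in spleen by limma and none higher, where 8.45% of all edited positions were lower. In thymus 0 of 59 passed, in small intestine 0 of 54, in heart 0 of 36 and in brain 0 of 42, where 0% of all did. The median differences of this list were -2.87 percentage points in spleen, -4.24 in thymus, -10.3 in small intestine, -3.12 in heart and -1 in brain, against -1.64, -2.59, -2.32, -1.75 and -0.838 over all edited positions. Of 6 genes with sites known to be edited by ADAR2, among them Gria2 and Cog3, no position passed by limma among 3 in spleen, 4 each in thymus, small intestine and heart, and 24 in brain. Their median differences were -2.33, -1.37, -8.82, 1.97 and 0.0884 percentage points.

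The patterns most like those of the leads were sought over the mean levels of tissue and genotype groups, with at least 10 groups shared and 1 position per gene. Nearest the Exoc8 lead were 3′ UTR positions of Fbxl17, Sdf4 and Ttbk2, which differed from it by a mean of 2.95, 3.68 and 4.07 percentage points over 10 groups, against a median of 11.5 over 838 genes. Nearest the Agphd1 lead were positions of uc008obr.1 (2.06 points, 10 groups), Ankrd28 (3.63 points, 11 groups) and Car5b (3.85 points, 11 groups), with 61.5% ± 33.5, 53.2% ± 8.07 and 72.5% ± 17 (SD, n = 3) in WT liver. The Exoc8 comparison shares only 1 of the 2 groups in which that lead reached 10%, so it rests mostly on groups near 0.

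Among the nearest to the Trove2 lead were positions of uc008obr.1 (7.14 points, 11 groups) and Cds2 (7.48 points, 15 groups), against a median of 25.6 over 1030 genes. The Cds2 position shares all 7 groups in which the Trove2 lead reached 10%. Its brain level was 82.9% ± 24.2 (SD, n = 2) for WT. For E861A it was 52.1% ± 5.91 (SD, n = 3). Nearest the uc007vsb.1 lead were positions of uc008obr.1 (4.37 points, 12 groups), Mad2l1 (6.71 points, 12 groups) and uc007kcl.1 (8.12 points, 10 groups), which share 4, 4 and 3 of the 7 groups in which that lead reached 10%. The uc007kcl.1 position was near 0 in its 3 (1.74%, 0.786% and 0.234% in WT thymus, small intestine and heart, against 26.7%, 34.1% and 21%). The Mad2l1 position had 26.9%, 21.8% and 33.3% there but 0.348% in WT kidney, against 55.2%. The uc008obr.1 position had 78.8%, 49.1% and 17.2% in WT liver, kidney and small intestine but 0% in WT heart. All 3 distances also rest on groups near 0 in both. These distances share libraries and carry no test.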

How the data were processed

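For each of the 48 libraries (3 per genotype in 8 tissues) the authors deposited a table listing 48715 positions, each with its coverage as a read count, its edited read count and the edited fraction. No normalization was applied. The submitters' processing notes name STAR, SAMtools and mm9, with no versions, and the mm9 base was A on the transcript strand at all 7339 positions above 100 reads. The 2 further matrices of the series were not used. Levels were recomputed from the counts. Following the study's methods, a library with 100 reads or fewer at a position was a missing value, a position needed more than 100 reads in at least 2 of 3 libraries of both genotypes, and positions at or below a level of 1% were left out. The methods do not say how libraries and genotypes were combined for that limit. Here it was applied to the pooled reads of each genotype, and a position was left out when both were at or below it, so the number of positions kept need not be the study's.

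The members and lists were chosen with earlier results of these data known. Positions were tested per tissue with limma 3.58.1 in R 4.3.3, by lmFit followed by trended eBayes. The response was log2((level + 0.01)/(1 - level + 0.01)), and p-values were adjusted by the Benjamini-Hochberg method across all edited positions of the tissue, with a threshold of 0.05. Brain was set against 4 tissues by interaction contrasts. Both fits were tested on simulated data with positions lowered by 5 on that scale. The simulated libraries spread less than the WT libraries of several tissues did at the leads. The power at such positions is therefore not given by the simulation. The lead of a gene is the position with the highest WT level averaged over BM, liver and kidney, other positions are described one by one from a group mean of 10%, and up to 3 likest positions of other genes are named per lead, with 1 not reported here. For uc007vsb.1 the rule gave position 55087163 (73.6%, from 1 group), which has no tissue of these with 2 covered E861A libraries, so position 55087127 (72.6%, from 3 groups) was taken, a choice made after the values were seen.

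Python 3.11.15 with pandas 2.3.3, numpy 2.4.6, scipy 1.17.1, Biopython 1.88 and pysam 0.24.0 gave the remaining values, samtools 1.23.1 indexed the genome, and matplotlib 3.10.9 drew the figures. PCR reads without molecular identifiers are not independent molecules, so the spread between libraries and not the read number sets the precision. The replicates may share animals across tissues, and p-values measure the spread between these samples. The alternatives were a coverage minimum of 50 or 500 reads, all 3 libraries covered, an edited limit of 5%, a quasi-binomial model, offsets of 0.001 and 0.05, an untrended eBayes, the level without transformation, the study's criterion (an F test with p under 0.1 and levels 0.05 apart), pooled reads, a block for the replicate number, 1 model of all 48 libraries, and each library left out in turn.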

Additional observations from a re-analysis of the deposited data

Results flagged for a closer look

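At the Trove2 adenosine 14 bases 3′ of the lead (position 145602494), the genotypes separated in opposite directions in brain and kidney. Every E861A brain library was above every WT brain library, with a mean difference of 9.85 percentage points (3 libraries against 2), and every E861A kidney library was below every WT kidney library, with a mean difference of -7.89 points (3 against 3). The kidney groups are parted by 6 edited of 1444 reads in E861A replicate 2 against 8 of 1921 in WT replicate 3, and the brain groups by 51 of 1242 reads in E861A replicate 1 against 24 of 658 in WT replicate 3, so both separations are within counting error. In brain E861A replicate 2, at 26.8%, carries most of the difference. The difference between brain and kidney was not tested, because kidney served to choose the gene. Against the other tissues, the change in brain differed by 2.98 on the log2 ratio scale from that in spleen, 2.63 from that in thymus and 2.13 from that in heart (limma adjusted p = 0.504, 0.568 and 0.729).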

How the results depend on the processing

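Counts of positions of the 4 genes that passed were 0 in all 5 tissues and all 4 comparisons with brain, and stayed 0 in 75 of the 80 values under alternatives that kept every library. The exceptions were 1 position each in thymus, heart and brain and 1 between brain and spleen with all 48 libraries in one model, where 17.8%, 6.5%, 26.9% and 8.98% of all positions passed, and 1 in brain by the study's criterion, where 7.8% did. With 1 library left out, the counts ran from 0 to 3 in thymus, the 3 without WT replicate 3, and from 0 to 1 between brain and thymus, again without WT thymus replicate 3 (uc007vsb.1 at 55087114, adjusted p = 0.0345). They stayed 0 in the other 4 tissues and the other 3 comparisons with brain. No direction of the uc007vsb.1 lead turned. For Trove2 the log2 ratio difference in heart ran from -1.57 to 1.61 with 1 library left out. Its difference between brain and thymus, 0.59, turned to -0.184 with an offset of 0.05 and to -0.112 (in level) on the untransformed level, and ran from -0.508 to 1.51 with 1 library left out, and that between brain and heart from -2.74 to 0.435. Under the alternatives that kept all libraries, the group levels of the leads moved by at most 13.9 points (uc007vsb.1 in WT small intestine, pooled reads), each by less than 1 SD. In the 5 tissues tested, deviations of same-numbered WT and E861A libraries from their group means correlated between -0.101 and 0.238, which does not meet the bar for pairing within a tissue. The numbers were not compared across tissues, and with the replicate block 0 positions passed in every tissue and comparison. No position of the 4 genes in brain was covered in all 3 libraries of both genotypes. At the Trove2 adenosine at base 11, WT brain replicate 2 (54 of 54 reads edited) stands above E861A once libraries over 50 reads count. In WT brain 0 to 2 libraries covered each lead, which limits the brain comparisons.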
